A study of Mus musculus with 6 samples.

Results

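*Sirt1* to *Sirt7* are the NAD-dependent protein deacylases of the mouse, and they were compared in M II oocytes of aged mice, matured in vitro (IVM) in the presence or absence of quercetin, a plant flavonoid. The members were chosen by name: the Ensembl gene identifiers of the count table were matched to symbols, and 7 of the 53465 genes were sirtuins. The rule used names only, and each of the 7 had counts in these oocytes. The 6 samples were pools of 15 oocytes, each pool taken from 3 female mice of the Kunming strain aged 9 to 10 months. In the control group, 3 pools were matured without quercetin, and in the quercetin group 3 pools were matured with 10 μM quercetin, both for 16 h. Quercetin was dissolved in DMSO, and whether the control medium held DMSO is not given in the sources used here. The mice were primed with gonadotropin and the cumulus cells were stripped by pipetting in both groups, and no young oocytes were sequenced.

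A sirtuin removes an acetyl group or a longer acyl group from a lysine of another protein and uses up NAD in the reaction, so its activity depends on the supply of NAD as well as on its own amount. SIRT1, SIRT6 and SIRT7 work mainly in the nucleus, SIRT2 mainly in the cytosol, and SIRT3, SIRT4 and SIRT5 in the mitochondrion. SIRT3 is the main deacetylase of the mitochondrial matrix and acts on superoxide dismutase SOD2, and the study followed it in ageing oocytes. Counts of mRNA do not measure the protein or its activity.

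The family shares a catalytic core, and the stretch that binds NAD is shown so that the paralogues can be compared at a conserved site. Each line gives 45 bases of coding sequence, 5′ to 3′ on the coding strand, from the GENCODE M21 transcripts on GRCm38, with the 15 bases that encode glycine, alanine, glycine, any residue and serine in capitals.
Sirt1: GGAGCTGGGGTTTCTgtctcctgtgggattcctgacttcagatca
Sirt2: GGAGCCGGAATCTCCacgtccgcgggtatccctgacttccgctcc
Sirt3: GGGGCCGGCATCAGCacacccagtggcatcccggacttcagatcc
Sirt4: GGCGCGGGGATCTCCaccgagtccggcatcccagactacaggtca
Sirt5: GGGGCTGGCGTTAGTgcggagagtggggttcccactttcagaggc
Sirt6: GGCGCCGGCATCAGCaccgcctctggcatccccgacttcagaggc
Sirt7: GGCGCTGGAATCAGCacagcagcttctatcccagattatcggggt
Against *Sirt3*, *Sirt6* had the most bases the same, 37 of 45. It was followed by *Sirt2* with 32, *Sirt4* with 29, *Sirt1* with 28, *Sirt5* with 27 and *Sirt7* with 26. These counts include differences between codons of the same residue, so they do not rank the proteins, which were not compared. No 31-base word of any sirtuin transcript occurred in another sirtuin, so the paralogues can be told apart by reads of that length. Words shared with genes outside the family made up 12.1% of *Sirt3* and 16.4% of *Sirt5*, but 3.05% or less of each of the other sirtuins.

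The *Sirt3* stretch (ENSMUSG00000025486, minus strand) ran across exons 2 and 3 at chr7:140877879-140877997. Of the other mitochondrial members, the *Sirt4* stretch (ENSMUSG00000029524, minus strand) lay in exon 2 at chr5:115482893-115482937 and the *Sirt5* stretch (ENSMUSG00000054021, plus strand) in exon 3 at chr13:43371888-43371932. The stretch of cytosolic *Sirt2* (ENSMUSG00000015149, plus strand) crossed exons 5 and 6 at chr7:28776881-28777021. Among the nuclear members, the stretch crossed exons 3 and 4 in *Sirt1* (ENSMUSG00000020063, minus strand) at chr10:63331862-63335644 and in *Sirt7* (ENSMUSG00000025138, minus strand) at chr11:120622185-120624507. In *Sirt6* (ENSMUSG00000034748, minus strand) it crossed exons 2 and 3 at chr10:81625895-81626530.

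Total counts per pool ran from 7880467 to 9938743, and 3 counts, the least that is read here as presence of a gene, corresponded to 0.302 to 0.381 CPM, the counts of a gene relative to the library size. Since the cDNA was amplified and carried no molecular identifiers, such a floor allows for counting error alone. The pools did not separate by treatment on the main axis of variation among all genes (32.4% of the variance), where quercetin replicates 1 and 2 stood at -37.9 and -30.9 while quercetin replicate 3 stood at 30.8, beside control replicate 2 at 31.3. All 11 oocyte markers had counts in every pool and summed to between 29665 and 36624 CPM. Of 12 cumulus and granulosa cell markers, 3 (*Foxl2*, *Amh* and *Ptx3*) were at 0 in all pools, and the summed level was 70.2 to 86.5 CPM in control and 91.4 to 96.8 CPM in quercetin pools, mostly from *Cyp19a1*. Among these markers *Kitl*, which encodes kit ligand, was at 71, 64 and 77 counts in the control and 95, 112 and 106 in the quercetin pools without overlap, a log2 fold change of 0.59 (SE 0.21, edgeR unadjusted p = 0.0209, adjusted p = 0.988). Groups did not overlap for 10.6% of all tested genes. The other tested markers did not rise together, with log2 fold changes of 0.22 for *Cyp19a1* (SE 0.15), 0.05 for *Has2* (SE 0.54) and -0.68 for *Ptgs2* (SE 0.61). The labels give no batch or date.

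*Sirt4* and *Sirt1* were the abundant sirtuins of these oocytes, and the other 5 had under 50 counts in every pool. Summed over the 6 pools, 3819 counts fell on *Sirt4* and 3896 on *Sirt1*, against 227 on *Sirt6*, 171 on *Sirt3*, 165 on *Sirt7*, 91 on *Sirt5* and 61 on *Sirt2*. The whole family took between 0.0153% and 0.0168% of the counts of a pool.

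To compare levels between genes, CPM (scaled by edgeR's TMM factors) were divided by the total length of a gene's annotated exons in kilobases. *Sirt4*, which carries ADP-ribosyltransferase and lipoamidase activity, stood highest at 30.8 ± 5.45 CPM per kb (SD, n = 6). *Sirt1*, a deacetylase of histones and transcription factors, followed at 14.0 ± 1.86. *Sirt6*, which acts on chromatin in DNA repair, stood at 1.58 ± 0.371.

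A group of lower genes followed, with *Sirt7*, a nucleolar member linked to ribosomal RNA transcription, at 0.615 ± 0.159 CPM per kb and *Sirt3* at 0.550 ± 0.161. *Sirt5*, which removes succinyl and malonyl groups, was at 0.291 ± 0.102, and *Sirt2*, the tubulin deacetylase, at 0.234 ± 0.177. Within pools, *Sirt4* was above *Sirt1* (2.18-fold), *Sirt1* above *Sirt6* (8.90-fold), *Sirt6* above *Sirt7* (2.58-fold) and *Sirt3* above *Sirt5* (1.92-fold) in 6 of 6 pools each. *Sirt7* was above *Sirt3* in 5 of 6 pools and *Sirt5* above *Sirt2* in 3 of 6, so the order of these neighbours varied between pools. The order was ranked on the same values, so neighbours are described here without a test. *Sirt3* is tested below against every paralogue, which takes in its neighbours *Sirt7* and *Sirt5*.

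The lower part of this order depended on the length used. The annotated exons of *Sirt3* add up to 5973 bases, but the exons of its protein-coding transcripts cover only 1726 bases. With exons of protein-coding transcripts, *Sirt3* was at 1.90 CPM per kb, ahead of *Sirt6* at 1.70 and *Sirt7* at 1.63, while *Sirt4* at 36.2 and *Sirt1* at 16.9 remained far above. *Sirt2* at 0.522 and *Sirt5* at 0.464 then formed the lower end. With the longest transcript of each gene, *Sirt3* was at 1.02 CPM per kb, close to *Sirt7* at 0.967. The mean log2 ratio of *Sirt6* to *Sirt7* was 1.37 by all exons but 0.066 by coding exons, and that of *Sirt3* to *Sirt5* was 0.94 by all exons but 0.51 by the longest transcript.

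**Figure D1:**
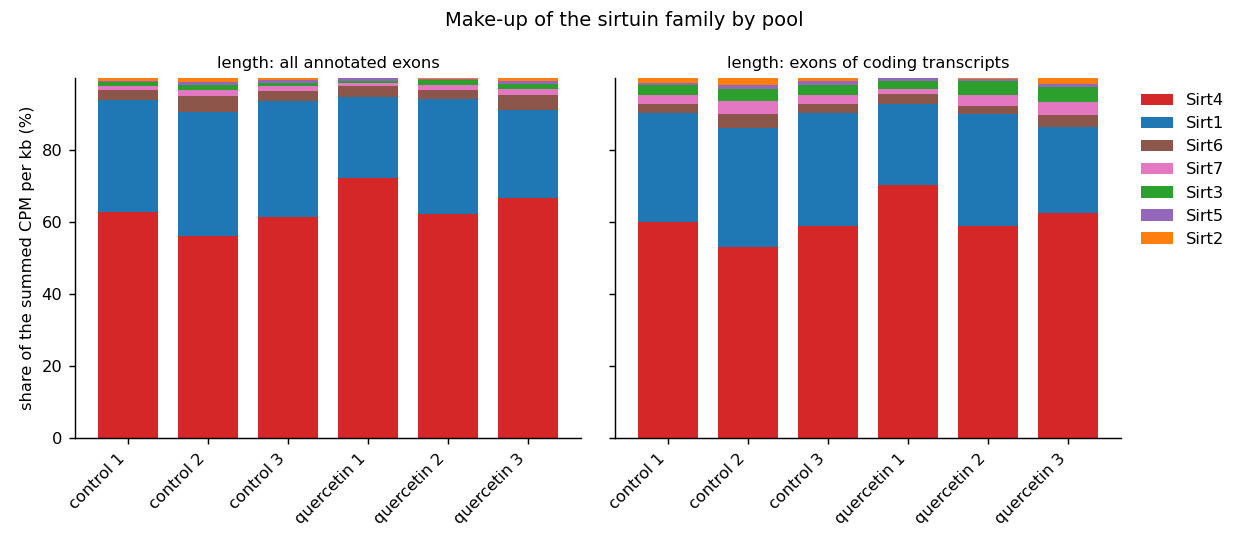
Share of each sirtuin in the summed CPM per kb of the family (y axis, percent) in each of the 6 pools (x axis), with length taken from all annotated exons on the left and from exons of protein-coding transcripts on the right. *Sirt4* and *Sirt1* together hold 90.6% to 94.9% of the stack on the left and 86.2% to 92.9% on the right.

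Within the family, *Sirt4* and *Sirt1* made up 90.6% to 94.9% of the summed CPM per kb in every pool. The *Sirt4* share averaged 60.3% in control and 67.1% in quercetin pools, and the *Sirt1* share 32.5% and 26.4%. The 3 mitochondrial sirtuins together held 64.3%, 58.4% and 63.4% in the control pools and 73.8%, 63.9% and 68.9% in the quercetin pools, so that the groups overlapped in quercetin replicate 2. *Sirt3* contributed little to this, between 0.751% and 1.58% of the family by all exons, and 2.91% in control and 3.51% in quercetin pools on average by coding transcripts. The 3 nuclear sirtuins held 37.3% ± 2.95 in control and 30.8% ± 4.87 in quercetin pools (SD, n = 3). These shares are descriptions, since the parts of a whole are not independent.

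None of the 7 sirtuins passed the test for a change with quercetin. Each was compared by edgeR's quasi-likelihood test fitted over all 11842 genes with enough reads (about 10 counts, here 1.17 CPM, in at least 3 pools), with Benjamini-Hochberg adjustment over those genes. A gene was called at an adjusted p under 0.05 with a fold change over 2, the study's criteria. All 7 passed the filter, *Sirt2* in exactly 3 pools and *Sirt5* in 4. Called were 0 of the 7 sirtuins, as were 0 of all 11842 genes (0%), whose smallest adjusted p was 0.0730. DESeq2 called 11 of 10670 genes (0.103%) and edgeR's likelihood ratio test 16 of 11842 (0.135%), with no sirtuin in either. The paper, by contrast, reports genes changed in both directions at its criteria and does not name the test program. It also reports higher *Sirt3* and *Sod2* with quercetin and shows quantitative PCR for them, which the counts used here do not include. P-values here measure the spread between pools, and the sources used here do not say how the mice of different pools were related.

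At an unadjusted p under 0.05 there was 1 sirtuin, *Sirt4*, higher with quercetin, where 4.03% of all tested genes (2.14% higher and 1.89% lower) lay. *Sirt4* was also the member whose groups did not overlap, a pattern met by 10.6% of all tested genes (5.42% higher and 5.17% lower). The fitted log2 fold change, quercetin over control, was above 0 for 4 sirtuins and under 0 for 3, with a median of 0.06. Over all tested genes, 46.4% were above 0 and the median was -0.026.

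**Figure D2:**
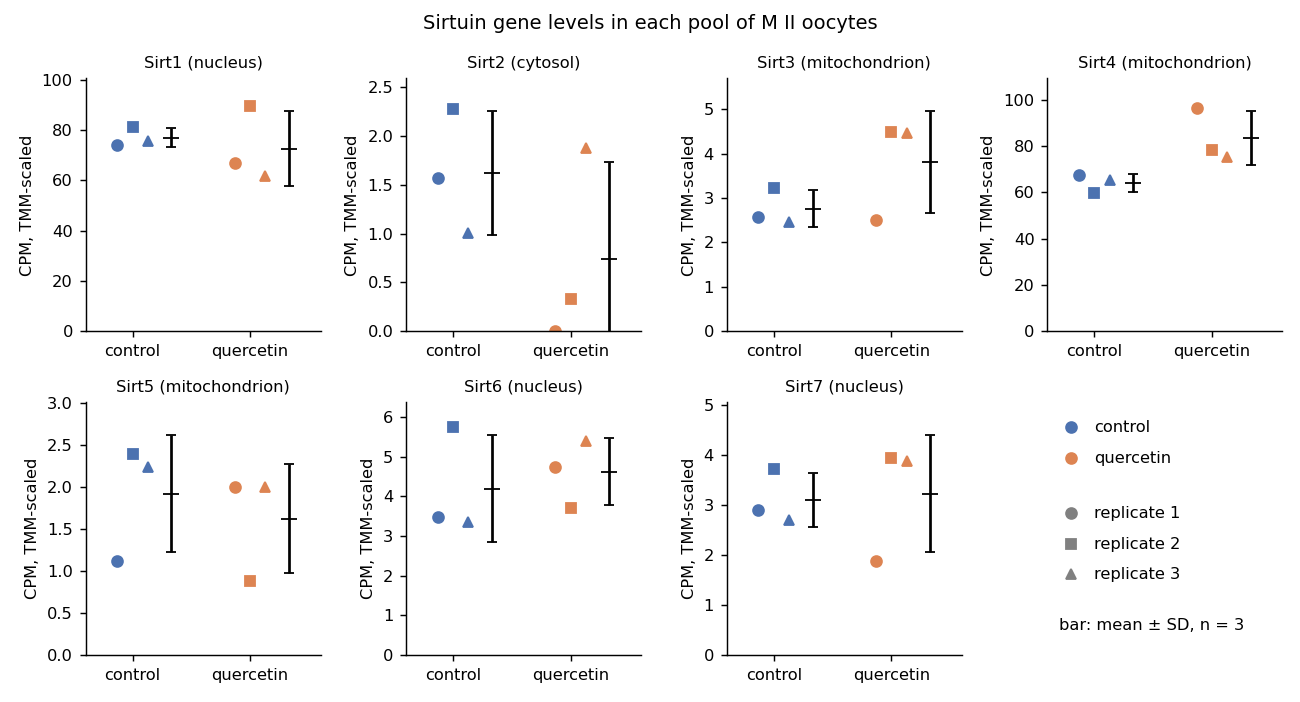
CPM (y axis, TMM-scaled, from 0 in each panel) of the 7 sirtuins in the 3 control and 3 quercetin pools (x axis), with points for pools, marker shapes for replicate numbers and bars for mean ± SD. *Sirt4* is the panel in which the 3 quercetin pools, 75.3 to 96.7 CPM, all lie above the control pools, 59.9 to 67.6 CPM, and in the *Sirt2* panel the lower end of the quercetin bar would fall under 0.

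Among the mitochondrial members, *Sirt4* was at 604, 500 and 581 counts in the control pools and 774, 718 and 642 in the quercetin pools. The lowest quercetin pool was thus above the highest control pool, by unscaled library size as well. The mean CPM of *Sirt4* was 64.2 ± 3.91 in control against 83.5 ± 11.5 with quercetin (SD, n = 3), and quercetin replicate 1 was the highest at 96.7. The log2 fold change was 0.38 (SE 0.16, 95% interval 0.01 to 0.75), a fold of 1.30, with an unadjusted p = 0.0447 and an adjusted p = 0.988 by edgeR's quasi-likelihood test. The exact permutation test gave p = 0.1, the smallest that 3 pools against 3 allow. Over the alternative settings the unadjusted edgeR p of *Sirt4* ran from 0.0238 to 0.190, the latter without quercetin replicate 1, where the log2 fold change was 0.26. The summed level of the cumulus and granulosa markers likewise did not overlap between the groups. It came mostly from *Cyp19a1*, at a mean of 64.1 CPM in control and 74.4 CPM in quercetin pools. Of the 4 markers tested, 3 had a log2 fold change above 0 and 1 under 0, and 2 were higher without overlap in CPM. The part of this sum in the values of *Sirt4* was not tested. From a pool of oocytes, fewer oocytes with a transcript and less of it per oocyte cannot be told apart.

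*Sirt3* was at 2.57, 3.24 and 2.47 CPM in the control pools and 2.50, 4.48 and 4.46 in the quercetin pools. Quercetin replicates 2 and 3 were above all control pools, and quercetin replicate 1 lay between control replicates 3 and 1. The fold was 1.39 with a 95% interval from 0.814 to 2.36, which includes no change as well as a doubling (edgeR, unadjusted p = 0.199, adjusted p = 0.988). The control pools varied by 15.1% (coefficient of variation), against 20.4% that counting alone would give at this depth, and the quercetin pools by 29.9% against 17.4%. Without quercetin replicate 1 the log2 fold change was 0.70, and without quercetin replicate 2 it was 0.34, with an adjusted p by edgeR near 1 in both cases.

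*Sirt5* was at 10, 20 and 20 counts in the control and 16, 8 and 17 in the quercetin pools. The groups overlapped fully, with the lowest pool in the quercetin group and the next lowest in the control group. The log2 fold change was -0.25 (95% interval -1.31 to 0.82, edgeR adjusted p = 0.990). Without quercetin replicate 2, the lowest pool, it turned to 0.061.

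Cytosolic *Sirt2* had the widest spread of the family. It was at 14, 19 and 9 counts in the control pools and 0, 3 and 16 in the quercetin pools. Quercetin replicate 1, at 0 counts, allows up to 3 counts or 0.354 CPM, and quercetin replicate 3 was within the range of the control pools. Mean levels were 1.62 ± 0.635 CPM for control and 0.735 ± 1.00 CPM for quercetin (SD, n = 3), and the log2 fold change was -1.11 with an SE of 0.88 (95% interval -3.10 to 0.87, edgeR adjusted p = 0.988). The difference rested on single pools: without quercetin replicate 3 it was -3.12 (edgeR unadjusted p = 0.00981, adjusted p = 0.269), without quercetin replicate 1 it was -0.56 and without quercetin replicate 2 it was -0.75. The pools low in *Sirt2*, quercetin replicates 1 and 2, were those at the negative end of the main axis of variation, and the part of that axis in the *Sirt2* counts was not tested.

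**Figure D3:**
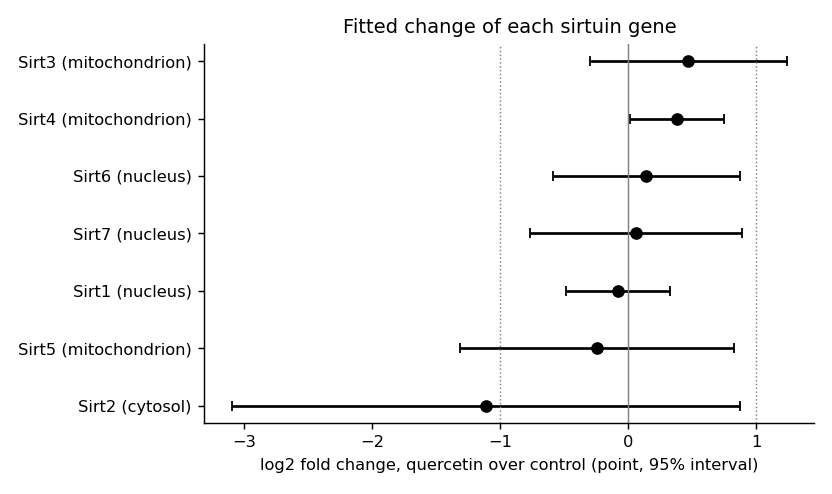
Fitted log2 fold change of each sirtuin, quercetin over control (x axis, points, with 95% intervals as bars), by edgeR's quasi-likelihood fit, with dotted lines at a 2-fold change either way. The intervals of all members except *Sirt4* (0.01 to 0.75) include 0, and the intervals of *Sirt1* and *Sirt4* are the narrowest while that of *Sirt2* (-3.10 to 0.87) is the widest.

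Of the nuclear members, *Sirt1* was at 73.9, 81.3 and 75.8 CPM in the control and 66.8, 89.5 and 61.8 CPM in the quercetin pools. The quercetin pools thus held both the highest value and the pair of lowest values. Their coefficient of variation was 20.3%, against 4.93% in the control pools and about 3.99% from counting alone. The log2 fold change of -0.08 had an interval of -0.49 to 0.32 (edgeR adjusted p = 0.993), which leaves out a 2-fold change in either direction. The same held for the intervals of *Sirt4*, *Sirt6* and *Sirt7*, but not for those of *Sirt2*, *Sirt3* and *Sirt5*.

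*Sirt6* was at 31, 48 and 30 counts in the control and 38, 34 and 46 in the quercetin pools. *Sirt7* was at 26, 31 and 24 counts in the control and 15, 36 and 33 in the quercetin pools. Both overlapped between groups, *Sirt6* with its highest pool among the controls and *Sirt7* with its lowest pool in the quercetin group. The log2 fold changes were 0.14 (95% interval -0.59 to 0.87) and 0.06 (-0.77 to 0.89), each within its spread. For *Sirt7* the sign was negative, -0.020, when counts were scaled by library size only, a scaling that moved the median of all genes to -0.11.

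*Sirt3* was then set against each paralogue within the same pool, a ratio that no library scaling can alter. The question was whether *Sirt3* stood out from nuclear, cytosolic and mitochondrial members. By CPM per kb of all exons, *Sirt3* was lower than *Sirt4* in 6 of 6 pools (56.2-fold), lower than *Sirt1* in 6 of 6 (25.8-fold) and lower than *Sirt6* in 6 of 6 (2.89-fold). It was higher than *Sirt5* in 6 of 6 pools (1.92-fold) and higher than *Sirt2* in 6 of 6, with a log2 ratio between 0.25 and 5.11 that depends on the prior count of 0.5 where *Sirt2* was at 0. Each of these 5 ratios reached the smallest p that a two-sided exact sign-flip permutation test over 6 pools allows, 0.031, with an adjusted p = 0.0375 over the 6 paralogues. The ratio to *Sirt7* was near 1, with *Sirt3* higher in 1 of 6 pools (exact test, p = 0.156). These folds depended on length. By exons of protein-coding transcripts the log2 ratio was -4.26 to *Sirt4* and -3.16 to *Sirt1*, smaller gaps than the -5.81 and -4.69 by all exons, and *Sirt3* was no longer lower than *Sirt6*, with a log2 ratio of 0.16. By the longest transcript no adjusted p of the exact test was under 0.0625. *Sirt3* was still lower than *Sirt4*, *Sirt1* and *Sirt6* at that length, each at the smallest unadjusted p of the exact test, 0.031.

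The change of each ratio with quercetin was compared by an exact permutation test of 3 pools against 3, which cannot go under p = 0.1. The log2 ratio of *Sirt3* to *Sirt7* was -0.17, -0.20 and -0.12 in the control pools and 0.40, 0.19 and 0.20 in the quercetin pools. These groups did not overlap, and the ratio was higher by 0.43 with quercetin (SE 0.07, exact permutation p = 0.1, adjusted p = 0.4 over the 6 paralogues). The counts behind each of these ratios were between 15 and 41, and the 2 genes differed by 2 to 5 counts in each pool. At such counts, counting alone gives a coefficient of variation of 20.4% in control and 17.4% in quercetin pools for *Sirt3*. For *Sirt7* it gives 19.2% and 18.9%. The ratio had an SD of 0.037 in control and 0.12 in quercetin pools, less than counting alone would give. The SE of 0.07 rests on that spread and is therefore too small to measure the error.

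Against the other paralogues the groups overlapped. The difference in the log2 ratio was 0.05 for *Sirt4* (SE 0.42) and 0.67 for *Sirt5* (SE 0.65) among the mitochondrial members. It was 0.52 for *Sirt1* (SE 0.28), 0.26 for *Sirt6* (SE 0.36) and, with the widest error, 2.57 for cytosolic *Sirt2* (SE 1.22). All 6 differences were above 0, but they share the *Sirt3* counts and are therefore not independent. No adjusted p was under 0.4 by the exact permutation test, and the differences against *Sirt4* and *Sirt6* changed sign when single pools were left out.

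**Figure D4:**
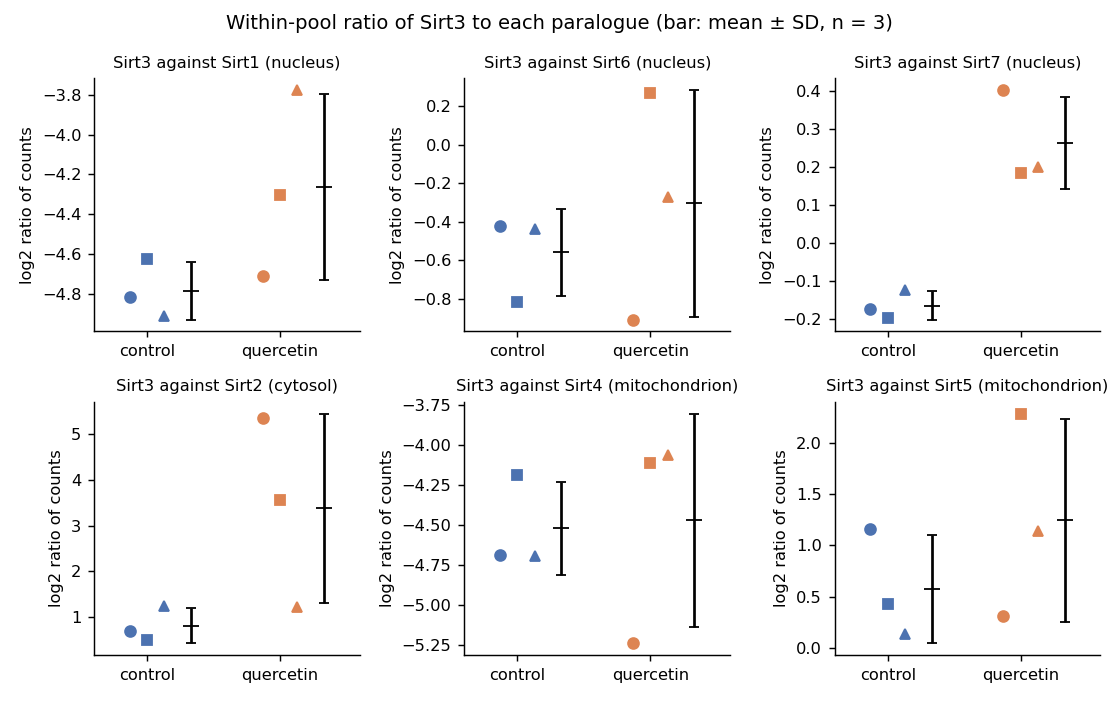
Log2 ratio of *Sirt3* counts to those of each paralogue within a pool (y axis, a different range in each panel, prior count 0.5), for 3 control and 3 quercetin pools (x axis; circles, squares and triangles are replicates 1, 2 and 3), with bars for mean ± SD. In the *Sirt7* panel the quercetin pools, 0.19 to 0.40, lie above the control pools, -0.20 to -0.12, and in the other 5 panels the groups overlap.

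Across the 6 pools, *Sirt7* was also the paralogue whose log2 CPM was most like that of *Sirt3*. Its Pearson r was 0.815 and its Spearman rho 0.943, at percentile 98.4 of the correlations of *Sirt3* with the 11841 other tested genes. The r was 0.348 for *Sirt6*, 0.185 for *Sirt2*, 0.133 for *Sirt1*, 0.042 for *Sirt4* and -0.318 for *Sirt5*. The pools share depth and the main axis of variation, and 6 points of low counts were used, so these are descriptions without a test.

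The 3 genes most like *Sirt3* were *2610020C07Rik* (r = 0.980), *Gm13864* (r = 0.979) and *Elp6*, a subunit of the Elongator complex (r = 0.978), and 13 genes had an r over 0.95. *Elp6* was at 23, 27 and 25 counts in the control and 19, 48 and 41 in the quercetin pools. *Gm13864* was at 38, 43 and 32 and at 33, 65 and 70, and *2610020C07Rik* at 19, 21 and 19 and at 15, 30 and 30. In each of the 3, as in *Sirt3*, quercetin replicates 2 and 3 were the highest pools and quercetin replicate 1 was at or near the lowest count.

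Genes on the opposite strand overlap the exons of *Sirt3*, and the strand setting of the counting is not given in the sources used here. *Ric8a*, a chaperone of G protein subunits, covers 418 of the 5973 exon bases of *Sirt3* and was at 8, 6 and 6 counts in the control and 10, 6 and 14 in the quercetin pools. *Psmd13*, a proteasome subunit, covers 342 and was at 1, 19 and 4 and at 4, 10 and 11 counts. Reads in these stretches could belong to either gene. *Mafg*, a small MAF transcription factor on the same strand as *Sirt7*, covers 2.41% of the exon length of *Sirt7*. *Mafg* was at 1, 79 and 1 counts in the control and 150, 102 and 1 in the quercetin pools. The part of *Mafg* reads in the *Sirt7* counts was not tested. The microRNA gene *Mir6936* in *Sirt7* and *Gm16145* in *Sirt1* were at 0 in every pool. *Nfkbib* overlaps 0.834% of *Sirt2*, and *Sirt4*, *Sirt5* and *Sirt6* share no exon base with another gene.

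The genes around the family were read from lists named after their roles, and none of their members was called, beside the 0% of all tested genes. Most genes named below have the smallest unadjusted p of their list, a choice that favours groups without overlap. Such groups were met in 10.6% of all tested genes (5.42% higher and 5.17% lower). Of 13 genes of NAD supply, *Naprt*, *Qprt* and *Nmrk2* were at 0 in every pool and 8 were tested, of which 6 had a log2 fold change above 0 and 2 under 0, with a median of 0.37. None had an unadjusted p under 0.05, against 4.03% of all tested genes. *Nampt*, the rate-limiting enzyme of NAD salvage, was at 62, 64 and 77 counts in the control and 77, 87 and 96 in the quercetin pools. These groups did not overlap in CPM, with a log2 fold change of 0.39 (SE 0.23, edgeR unadjusted p = 0.126, adjusted p = 0.988). *Slc25a51*, the mitochondrial NAD carrier, was at 26, 17 and 33 and at 20, 131 and 21 counts, so that its log2 fold change of 1.16 (SE 0.67) came from quercetin replicate 2.

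The other NAD consumers gave 4 tested genes of 8, split evenly in direction, with a median of -0.05. *Parp2* had a log2 fold change of -0.51 (SE 0.46) and *Parp1*, the main poly(ADP-ribose) polymerase of DNA repair, -0.12 (SE 0.30). Neither exceeded its spread between pools.

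Of 15 mitochondrial targets of SIRT3, 11 were tested, 6 with a log2 fold change above 0 and 5 under 0, with a median of 0.11 and no unadjusted p under 0.05. *Sod2*, the superoxide dismutase of the matrix, was at 517, 384 and 526 counts in the control and 451, 455 and 378 in the quercetin pools, and its log2 fold change was -0.11 (95% interval -0.52 to 0.29). *Aldh2*, a matrix aldehyde dehydrogenase, was at 65, 97 and 57 and at 33, 24 and 67 counts, a log2 fold change of -0.79 (SE 0.42, edgeR unadjusted p = 0.0927). Its low pools were again quercetin replicates 1 and 2. *Ndufa9*, a subunit of respiratory complex I, was at 38, 29 and 36 and at 42, 46 and 44 counts without overlap, a log2 fold change of 0.39 (SE 0.26, edgeR adjusted p = 0.988).

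Of 7 targets of SIRT4 or SIRT5, 4 were tested, 2 above 0 and 2 under 0. *Cps1*, the mitochondrial enzyme that starts the urea cycle, was at 11, 5 and 14 counts in the control and 17, 17 and 18 in the quercetin pools. Its log2 fold change was 0.83 (SE 0.43, edgeR unadjusted p = 0.0894). *Sod1*, the cytosolic superoxide dismutase, was at 118, 95 and 92 counts in the control and 66, 88 and 82 in the quercetin pools, a log2 fold change of -0.34 (SE 0.22). Neither of these overlapped between groups in CPM, a pattern met by 10.6% of all tested genes. Both had an adjusted p of 0.988 by edgeR.

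Regulators and targets of SIRT1 or SIRT2 numbered 17, of which 12 were tested, 6 above 0 and 6 under 0, with a median of 0.02. *Atat1*, the tubulin acetyltransferase that opposes SIRT2, was at 298, 219 and 298 counts in the control and 341, 379 and 333 in the quercetin pools. All quercetin pools were above the controls, a log2 fold change of 0.40 (SE 0.18, edgeR unadjusted p = 0.0542, adjusted p = 0.988). *Foxo3*, a transcription factor that keeps primordial follicles dormant, was at 869, 654 and 681 counts in the control and 603, 601 and 383 in the quercetin pools. Its groups did not overlap in CPM either, with a log2 fold change of -0.44 (SE 0.22, edgeR unadjusted p = 0.0721, adjusted p = 0.988). Among the 12 tested genes of this list, the groups did not overlap for 2 that were higher and 1 that was lower.

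Acetyltransferases that oppose the sirtuins gave 5 tested genes of 7, with 1 above 0 and 4 under 0 and a median of -0.24. *Ep300* had a log2 fold change of -0.28 (SE 0.17) and *Kat8*, the histone H4 lysine acetyltransferase, of -0.72 (SE 0.48), with overlapping groups in both. *Kat8* was at 15 and 18 counts in quercetin replicates 1 and 2 and at 50 in quercetin replicate 3.

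The zinc-dependent classical histone deacetylases, which need no NAD, were taken for comparison with the sirtuins. Of 11 genes, *Hdac5*, *Hdac7* and *Hdac10* were at 0 in every pool, 7 were tested, and 3 of these were above 0 and 4 under 0. The median log2 fold change was -0.001, beside 0.06 for the sirtuins, and the difference between these lists was not tested. *Hdac8* was at 171, 138 and 132 counts in the control and 188, 210 and 184 in the quercetin pools. These groups did not overlap in CPM, at a log2 fold change of 0.43 (SE 0.20, edgeR unadjusted p = 0.0560, adjusted p = 0.988). *Hdac6*, which like SIRT2 deacetylates tubulin, was at 28, 21 and 15 and at 7, 10 and 26 counts, with the low pools in quercetin replicates 1 and 2 as for *Sirt2*.

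**Figure D5:**
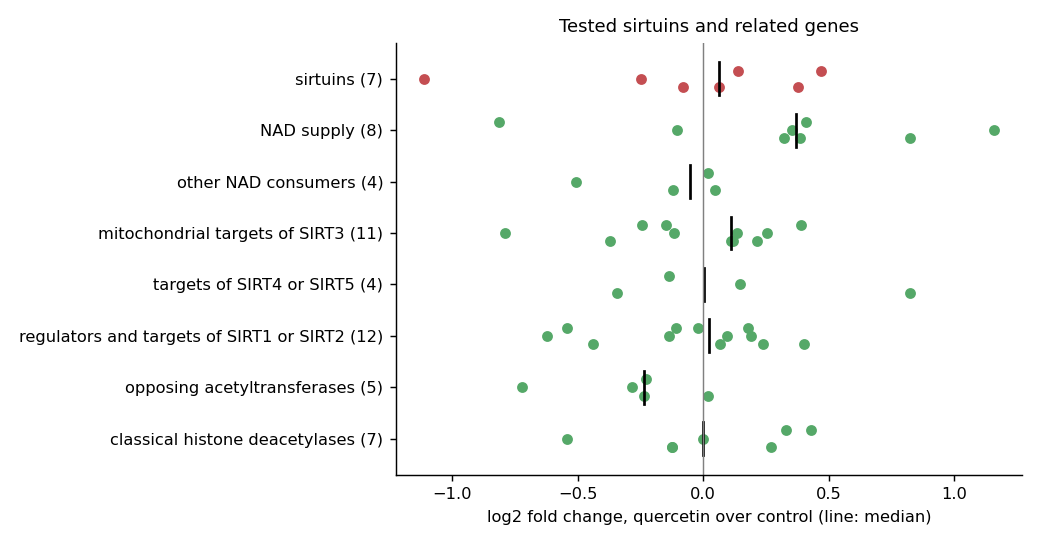
Fitted log2 fold change, quercetin over control (x axis), of the tested members of the sirtuin family and of 7 related lists (y axis, number tested in brackets), with a point for each gene and a line at the median. The medians run from -0.24 for the opposing acetyltransferases to 0.37 for NAD supply, and no point passed the test.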

How the data were processed

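RNA was sequenced from 6 pools of M II oocytes after cDNA synthesis with the Smart-seq HT kit. The authors deposited raw counts of reads per Ensembl gene, 1 column for each pool. The paper names Hisat2 and GRCm38.91, whereas the submitters' processing notes list CASAVA 1.8 and TopHat2 2.0.6, so the aligner is uncertain. The counting program and its treatment of strand and of shared reads are not given in the sources used here. Symbols matched 53274 of 53465 identifiers. Coordinates, lengths and sequences came from GENCODE M21 on GRCm38, and protein sequences were not used here.

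Counts of quercetin and control were compared across all genes with edgeR 4.0.16 in R 4.3.3 (filterByExpr with a minimum count of 10, TMM, glmQLFit and glmQLFTest, no covariate), with Benjamini-Hochberg adjustment. The standard error is the log2 fold change divided by the square root of F. Ratios and single values were compared by two-sided exact permutation tests in Python 3.11.15 with scipy 1.17.1, numpy 2.4.6 and pandas 2.3.3, and plots drawn with matplotlib 3.10.9. A prior count of 2 was added for log2 CPM and of 0.5 for ratios.

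The members and lists were chosen with earlier results of these data known. Named were the 7 sirtuins, *Sod2*, called genes and the 2 genes of smallest unadjusted p in each list that is not a marker list, the 3 genes most correlated with *Sirt3*, and genes overlapping a sirtuin's exons. *Cyp19a1*, *Kitl*, *Has2*, *Ptgs2*, *Nmrk1*, *Nadk*, *Nnt* and the genes at 0 were named after their values were seen. As alternatives, the likelihood ratio test of edgeR and DESeq2 1.42.0 were run, with other scalings and filters, other gene lengths, a replicate block and leaving out each pool. Leaving out pools for neighbours, single-gene values and lists was added after seeing the data.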

Additional observations from a re-analysis of the deposited data

How the results depend on the processing

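None of the alternatives that were run called a sirtuin. Over all genes, 3 were called with a filter of at least 1 count, 11 by DESeq2, 16 by edgeR's likelihood ratio test, and 0 to 7 when single pools were left out, and 0 by library size only or with the size factors of DESeq2. Sirtuins at an unadjusted p under 0.05 numbered 0 by library size only, with the filter of at least 1 count and by the likelihood ratio test, and 0 to 2 without single pools, the 2 being *Sirt2* and *Sirt4* without quercetin replicate 3. DESeq2 gave no adjusted p for *Sirt2*, and a filter of at least 10 counts in every pool left out *Sirt2* and *Sirt5*.

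With the replicate number as a block, 0 sirtuins had an unadjusted p under 0.05 and 0 genes were called. Under the block the log2 fold change was 0.44 for *Sirt3* and 0.37 for *Sirt4* (unadjusted p = 0.0566, adjusted p = 0.906 by edgeR's quasi-likelihood test). The numbers were not taken to pair the pools, since the sources used here do not say that same-numbered pools belong together. In their deviations, same-numbered pools correlated at 0.296, 0.101 and -0.0303. The value for replicate 1 was the highest of all pairs, while control replicate 2 correlated best with quercetin replicate 3 (0.176). *Nnt*, described below, was at 0 in replicate 2 of both groups, and whether these pools share a source was not tested.

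The fitted log2 fold change kept its sign for *Sirt3* (0.34 to 0.70 without single pools, 0.39 by library size only), *Sirt4* (0.26 to 0.45), *Sirt6* (0.01 to 0.43) and *Sirt2* (-3.12 to -0.56). It changed sign without single pools for *Sirt1* (-0.26 to 0.024), *Sirt5* (-0.52 to 0.061) and *Sirt7* (-0.10 to 0.33), and for *Sirt7* by library size only (-0.020). The difference in mean log2 CPM did likewise for *Sirt1* (-0.26 to 0.0076), *Sirt5* (-0.53 to 0.11) and *Sirt7* (-0.17 to 0.32). The change in the log2 ratio of *Sirt3* ran from -0.16 to 0.43 against *Sirt4*, from -0.031 to 0.56 against *Sirt6* and from 0.36 to 0.47 against *Sirt7*.

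Level ratios of *Sirt3* lost their call without any single pool, since 5 pools cannot go under p = 0.0625 in the exact test. The log2 ratio stayed between -4.84 and -4.61 against *Sirt1*, 1.20 and 2.17 against *Sirt2*, -5.90 and -5.66 against *Sirt4*, 0.66 and 1.09 against *Sirt5*, and -1.67 and -1.44 against *Sirt6*. Neighbours in the order of levels were not given a test as neighbours, although *Sirt3* was tested against each paralogue. Between neighbours, the log2 ratio without single pools ran as follows for *Sirt4* over *Sirt1* (1.014 to 1.21), *Sirt1* over *Sirt6* (3.06 to 3.27), *Sirt6* over *Sirt7* (1.20 to 1.48) and *Sirt3* over *Sirt5* (0.66 to 1.09). With the longest transcript the log2 ratio of *Sirt3* was -4.06 to *Sirt1*, 1.499 to *Sirt2*, -5.33 to *Sirt4*, 0.51 to *Sirt5*, -1.19 to *Sirt6* and 0.080 to *Sirt7*, the last a reversal, and no adjusted p was under 0.0625. With exons of protein-coding transcripts it turned to 0.16 for *Sirt6* and 0.22 for *Sirt7*. Between neighbours, the longest transcript and the coding exons gave 1.28 and 1.09 for *Sirt4* over *Sirt1*, 2.86 and 3.32 for *Sirt1* over *Sirt6*, 1.27 and 0.066 for *Sirt6* over *Sirt7*, -0.080 and -0.22 for *Sirt7* over *Sirt3*, and 0.51 and 2.05 for *Sirt3* over *Sirt5*.

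List genes at an unadjusted p under 0.05, 0 in each list, numbered 0 to 1 without single pools for NAD supply, SIRT3 targets, opposing acetyltransferases and classical histone deacetylases, and 0 to 2 for regulators and targets of SIRT1 or SIRT2, where library size only gave 1. The 5 less abundant sirtuins, at under 50 counts a pool, have the widest 95% intervals, which for *Sirt2*, *Sirt3* and *Sirt5* include a 2-fold change.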

Other observations

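Some genes of NAD metabolism differed widely between pools of the same group. *Nnt*, the mitochondrial transhydrogenase that couples NADH to NADPH, was at 111, 0 and 66 counts in the control and 208, 0 and 81 in the quercetin pools, so that it was at 0 in replicate 2 of both groups. A count of 0 allows up to 3 counts, or 0.381 CPM in control replicate 2 and 0.302 CPM in quercetin replicate 2, while the other pools held 66 counts or more. *Nmrk1*, a nicotinamide riboside kinase, was at 0 in quercetin replicate 1 and at 24 to 39 counts in the other pools. *Nadk*, which makes NADP, varied from 118 to 702 counts, with control replicate 3 and quercetin replicate 2 (661) far above the rest. No batch label was given that these pools share, and the source of these differences was not tested.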
